A study of Mus musculus with 12 samples.

Results

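Expression of 31 coagulation and fibrinolysis genes was measured by RNA-Seq in primary mouse hepatocytes, with 4 groups of 3 libraries, 12 in all. The genes were chosen by symbol from a list of members, all 31 symbols were found among the 55450 genes of the tables, and they were set in 3 roles: 16 procoagulant, 8 anticoagulant and 7 fibrinolytic genes. The fibrinolytic role takes in Serpinf2 and Cpb2, whose products act against lysis. The anticoagulant role takes in Serpina5, the protein C inhibitor, whose product also acts against an anticoagulant protein. WT hepatocytes carried floxed Cebpa alleles (genotype Cebpafl/fl), and KO hepatocytes carried the same alleles deleted by Cre recombinase from the albumin promoter (Cebpa{delta}Alb), which is active in hepatocytes. GFP hepatocytes were given an adenovirus for green fluorescent protein (Ad-GFP) and OE hepatocytes an adenovirus for mouse Cebpa (Ad-m-Cebpa), so both of these groups carried virus, and the labels do not give their Cebpa alleles. Cebpa encodes CEBPA, a transcription factor of the leucine zipper class found at high levels in the adult liver. The study used male mice, and the age of the mice and the time of exposure to virus are not given in the labels of these libraries. The labels number the libraries of a group as biological replicates and do not state if each came from its own mouse or culture, so p values here measure only the spread between these samples, which may be technical. A result of this kind in bulk RNA cannot tell fewer cells of a type from less RNA per cell.

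Blood clots when tissue factor on cells outside the vessel binds factor VII, and a chain of serine proteases, most of them made by hepatocytes, ends in thrombin, which cuts fibrinogen to fibrin. Antithrombin, protein C, tissue factor pathway inhibitor and related proteins limit this chain, and plasmin, which plasminogen activators release from plasminogen, dissolves the fibrin. Hepatocytes secrete nearly all of the plasma proteins of this system, whereas factor VIII, thrombomodulin and tissue-type plasminogen activator come mainly from endothelial cells, and fibrinogen is an acute phase protein that the liver makes in larger amounts in inflammation.

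Total counts per library lay between 20160081 and 23304230. Cebpa ranged from 229 to 309 CPM in the WT libraries, from 0.164 to 0.963 CPM in KO, from 48.0 to 54.3 CPM in GFP and from 13292 to 14079 CPM in OE, where reads of the viral cDNA may be counted. CPM, counts relative to the library total, was scaled within each experiment and serves to compare 1 gene between libraries. The 10 hepatocyte markers were detected in each group, with sums of 122328 to 130720 CPM for WT, 132031 to 167527 for KO, 39264 to 40334 for GFP and 13306 to 13983 for OE, and Alb led the list in all 4 groups. The 13 endothelial markers summed to 18.2 to 31.6 CPM for WT, 21.5 to 49.1 for KO, 58.8 to 61.6 for GFP, and 40.6 to 43.8 for OE. Of the 13 macrophage markers, which summed to 3.71 to 23.6 CPM for WT, 14.4 to 49.3 for KO, 126 to 139 for GFP and 106 to 119 for OE, Adgre1, Clec4f, Marco and Timd4 were at 0 in GFP, and Cd68 made up 131 CPM of that sum. The 7 neutrophil markers were at 0 in GFP and summed to 552 to 647 CPM in OE, of which S100a9 and S100a8 gave 362 and 224 CPM while Ly6g and Mpo remained at 0. Ngp and, at a low level, Camp were also detected in each OE library. Of the 7 markers 3 were tested in OE against GFP and all 3 were called higher, against 43.9% of all genes tested. The part of these differences in the results was not tested.

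The levels of the members were set side by side in TPM, which is scaled for gene length and so allows genes to be compared. In WT the 3 fibrinogen chains and antithrombin led: Fga stood at 3198 ± 574 TPM (SD, n = 3), Fgg at 2736 ± 377, Serpinc1 at 2534 ± 86.1 and Fgb at 1509 ± 182. The order of Fga, Fgg and Serpinc1 was within their spread. Plg (1338 ± 99.2 TPM), Kng1 (1272 ± 60.1) and F2 (1237 ± 84.1), which encode plasminogen, a kininogen and prothrombin, followed and did not differ beyond their spread. At the other end F3, Serpina5, F8, Tfpi, Thbd, Plaur, Plat and Plau stood at 1.01 ± 0.393 TPM or less in WT, and Plat and Plau at 0 in all 3 libraries. In KO the same 4 genes led, with Fga at 4780 ± 1846, Fgg at 3771 ± 1297, Serpinc1 at 2874 ± 162 and Fgb at 2003 ± 650 TPM.

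In the virus-treated cultures the order was another one. F2 led in GFP with 386 ± 10.7 TPM, followed by Serpinc1 with 273 ± 8.88, Kng1 with 260 ± 4.07, F12 with 204 ± 1.1 and Fgb with 203 ± 11.8, and the last 2 did not differ beyond their spread. In OE the fibrinogen chains stood first again, with Fgb at 399 ± 7.94, Fgg at 378 ± 11.9 and Fga at 337 ± 8.7 TPM. Plaur, F3 and Thbd, which averaged 1.01 TPM or less in WT, stood at 47.1 ± 1.09, 32.8 ± 2.33 and 8.76 ± 0.281 TPM in GFP. The 31 genes summed to 16300 to 19517 TPM in WT and to 2717 to 2766 TPM in GFP, and since the 2 controls differ in experiment and in virus, these causes cannot be told apart and no test was made between them.

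**Figure D1:**
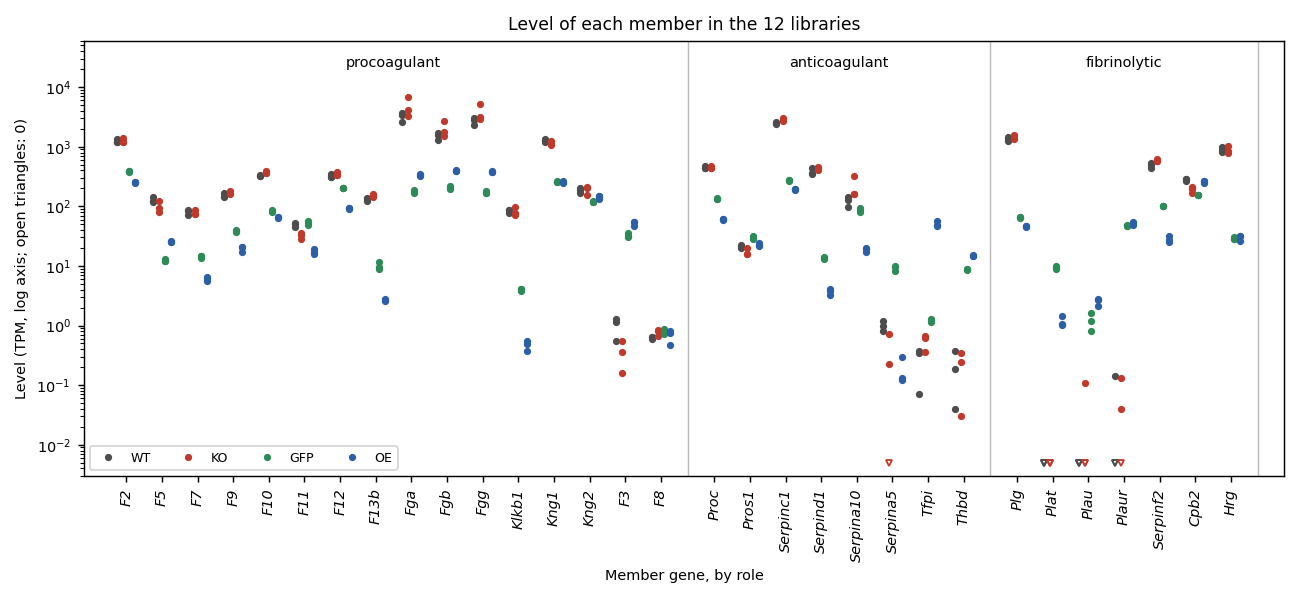
Level of each of the 31 genes in TPM (vertical, log axis) by gene and role (horizontal), where each point is a library of WT, KO, GFP or OE and open triangles mark libraries at 0. Most plasma protein genes lie highest in WT and KO, while Plaur, F3, Thbd and Plat are low or at 0 there and above 8 TPM in GFP.

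KO was compared with WT to ask which of these genes depend on CEBPA in hepatocytes. No member passed the edgeR test at an adjusted p under 0.05: 0 of the 28 members tested, against 1.71% of all 11846 genes tested (0.692% higher and 1.02% lower in KO, and 0.566% and 0.794% with a change over 2-fold). Plat, Plau and Plaur had at most 2 counts in any WT or KO library and were not tested. At an unadjusted p under 0.05 there were 9 members, limma on log2(TPM + 1) called 0 and DESeq2 called 2, F11 and Cpb2, both lower in KO. The fit of all 12 libraries, in which KO and WT share the spread of the less variable GFP and OE libraries, called these and F3, lower in KO. No share of all genes is given here for the unadjusted p, for DESeq2 or for that fit. These counts are therefore not read as an excess among the members. The members' median log2 fold change was 0.10, beside 0.01 for all genes tested, and 20 of the 28 had a 95% interval that stayed inside a 2-fold change in either direction. The other 8, for which these libraries do not bound the change to 2-fold, were Fga, Fgb, Fgg, F3, Serpina10, Serpina5, Tfpi and Thbd.

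Groups did not overlap for 7 members with higher levels in KO, which is 25% of those tested against 9.66% of all genes, and for 4 with lower levels, 14.3% against 10.4%. The 7 were F10, F12, F13b, F8, Serpinc1, Serpina10 and Serpinf2, and the 4 were F11, F3, Serpina5 and Cpb2. Serpinc1, which encodes antithrombin, the main inhibitor of thrombin, stood at 1776, 1793 and 1786 CPM in WT, compared with 2114, 2007 and 2076 in KO, a log2 difference of 0.21 ± 0.10 (SE) with an interval of −0.03 to 0.45 (adjusted p = 0.417). The 6 vitamin K-dependent genes, F2, F7, F9, F10, Proc and Pros1, lay between −0.29 and 0.24 on the log2 scale with a median of 0.05, and none passed the test.

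F11, which encodes the protease factor XI, stood at 63.4, 77.9 and 68.3 CPM in WT, compared with 47.0, 54.4 and 41.0 CPM in KO. The groups did not overlap, and the log2 fold change was −0.56 ± 0.13 (adjusted p = 0.119 with edgeR, 0.018 with DESeq2 and 0.00722 in the fit of all 12 libraries). Cpb2 encodes procarboxypeptidase B, which when activated by thrombin trims fibrin and slows its lysis, and it is shown because the other tools called it, a choice made after its values were seen. Its level was 247, 286 and 266 CPM in WT, compared with 162, 209 and 184 CPM in KO, without overlap, with a log2 fold change of −0.53 ± 0.13 (adjusted p = 0.117 with edgeR, 0.00775 with DESeq2 and 0.00362 in the fit of all 12 libraries). F3, tissue factor, was low in both groups, with 1.33, 1.68 and 0.599 CPM in WT, compared with 0.578, 0.206 and 0.452 CPM in KO. Its log2 fold change was −1.52 ± 0.52 (adjusted p = 0.26), and it passed only in the fit of all 12 libraries (adjusted p = 0.036).

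The fibrinogen chains, which assemble into 1 protein, are neighbours on chromosome 3 with no protein-coding gene between them, Fga at 83026076 to 83033627, Fgb at 83040141 to 83049863 and Fgg at 83007724 to 83015049 (mm10). Fga stood at 3555, 4919 and 5089 CPM in WT, compared with 6093, 10254 and 4657 CPM in KO. Fgb stood at 3429, 4292 and 4357 CPM in WT, compared with 4901, 7714 and 3969 in KO, and Fgg at 2541, 3285 and 3342 against 3623, 6214 and 3235. All 3 chains were highest in KO2, and KO3 lay within the range of WT. Their log2 fold changes were 0.63 ± 0.30, 0.46 ± 0.26 and 0.51 ± 0.27, with adjusted p values of 0.414, 0.468 and 0.441. Without KO2 they were 0.25, 0.14 and 0.17. The summed level of 20 other acute phase genes, led by Hp and Hpx, moved between libraries too, with 9711, 11681 and 22734 CPM in WT, compared with 30048, 38623 and 10183 CPM in KO. Within KO it was highest in KO2 and lowest in KO3, as each chain was, while WT1 and WT3 differed more in this sum than in the chains. Of the 20 genes 19 were tested in KO against WT, and 0 passed in edgeR. Their log2 fold changes were positive in 17 and negative in 2. Orm1 went the other way, from 503 to 1221 TPM in WT to 8.44 to 161 TPM in KO. The part of these genes in the fibrinogen levels was not tested.

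**Figure D2:**
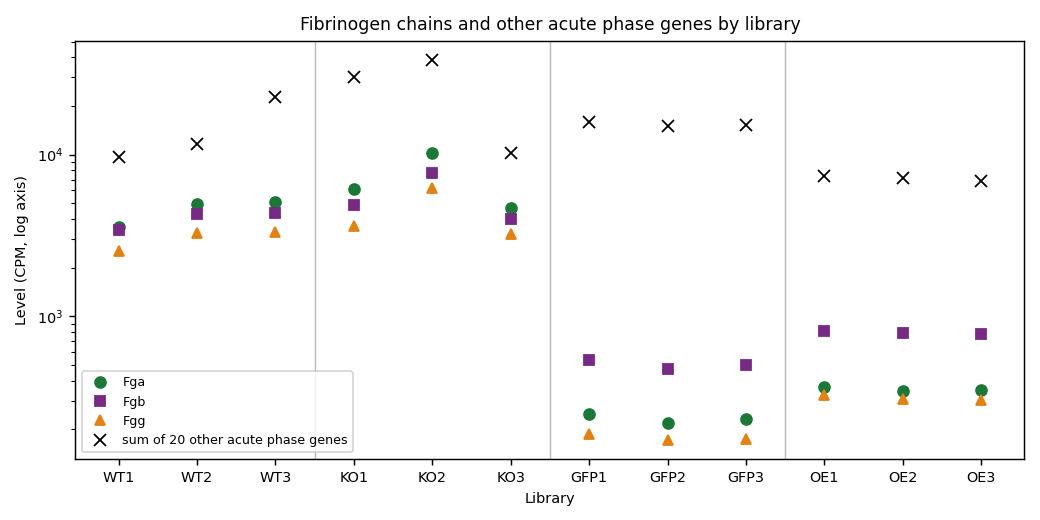
Level of Fga, Fgb and Fgg and the summed level of 20 other acute phase genes in CPM (vertical, log axis) in each of the 12 libraries (horizontal), scaled within each experiment. The chains are highest in KO2, where Fga stood at 10254 CPM, and rise from GFP to OE while the acute phase sum is lower in OE.

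Serpina10, an inhibitor of factor Xa that acts with protein Z, had the same library on top, with 133, 205 and 176 CPM in WT, compared with 228, 489 and 218 CPM in KO. Its log2 fold change was 0.86 ± 0.34 (adjusted p = 0.324), and 0.38 without KO2. Serpina5, the protein C inhibitor, was low, with 1.69, 1.504 and 1.16 CPM in WT, compared with 1.06, 0 and 0.328 CPM in KO, and its log2 fold change was −1.63 ± 0.82 (adjusted p = 0.433). That value was −3.00 without KO1 and −1.08 without KO2. KO2 held 0 counts of it, which allows a level of up to 0.154 CPM at a floor of 3 counts.

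Of the genes made mainly by the vessel wall or at cell surfaces, factor VIII (F8) stood at 2.75, 2.79 and 3.17 CPM in WT, compared with 4.57, 3.96 and 3.86 CPM in KO. The groups did not overlap, with a log2 fold change of 0.51 ± 0.17 (adjusted p = 0.244). Tfpi, the inhibitor of tissue factor, stood at 0.0916, 0.258 and 0.513 CPM in WT, compared with 0.481, 0.925 and 0.452 in KO. Thbd, thrombomodulin, the cofactor for activation of protein C, stood at 0.0916, 0.516 and 0.941 CPM in WT, compared with 0.915, 0.668 and 0.0821 in KO. Both overlapped between the groups, and with 2 to 22 counts per library a difference was not detectable at this depth. Of the 13 endothelial markers, whose sums are given above, 0 passed in edgeR, against 1.71% of all genes tested. At an unadjusted p under 0.05 there were 3, and the share of all genes at that limit is not given here.

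OE was compared with GFP to ask what more CEBPA does to cultured hepatocytes that carry a virus. Of the 31 members 9 rose (29.03%) and 20 fell (64.5%), against 43.9% and 42.7% of all 14889 genes tested. Kng2 and F8 did not pass in edgeR. Groups did not overlap for 9 members with higher and 21 (67.7%) with lower levels in OE, against 44.1% and 42.9% of all genes, and Kng2 was the member that overlapped. In this comparison 86.6% of all genes were called, and the biological coefficient of variation was 4.04%, against 20.4% in KO and WT. Over 2-fold, 12 members fell (38.7%), against 18.5% of all genes, and 1 rose, Tfpi, against 23.5% of all genes. Of the 10 hepatocyte markers 9 fell, 7 of them over 2-fold, and 1 rose, with a median log2 fold change of −1.53. The members' median log2 fold change was −0.74, beside 0.01 for all genes tested, and in limma on log2(TPM + 1), in which the median of all genes shifted to 0.27, it was −0.44. That scaling split the calls over all genes into 7100 higher and 4093 lower, against 6531 and 6362 on the count scale, and the calls over the members into 11 higher and 17 lower.

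**Figure D3:**
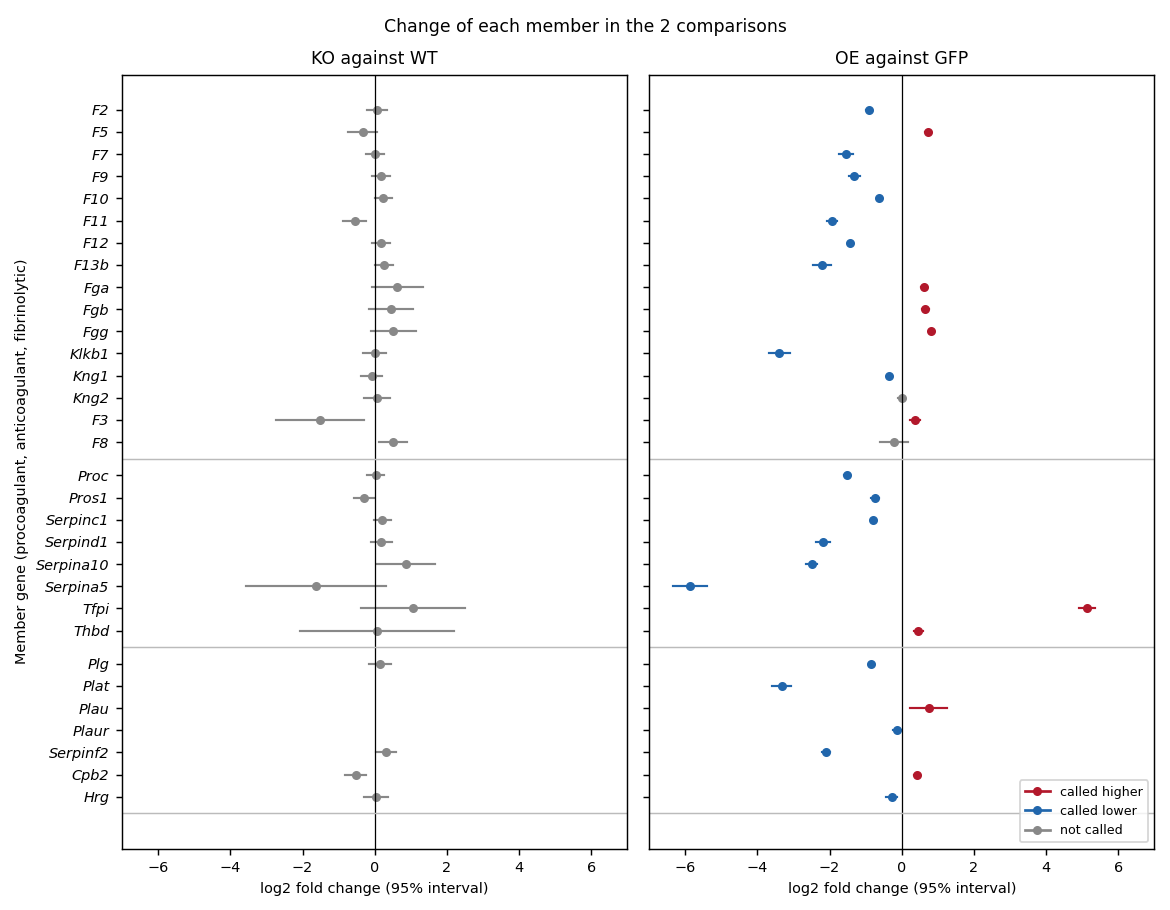
Log2 fold change of each member with its 95% interval (horizontal) by gene and role (vertical), in KO against WT (left) and in OE against GFP (right), where colour marks members that passed the test. In KO no member passed, and in OE 9 rose and 20 fell, with Tfpi at 5.12 and Serpina5 at −5.88.

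By role, 5 of 16 procoagulant genes rose and 9 fell (median log2 fold change −0.48), 2 of 8 anticoagulant genes rose and 6 fell (median −1.15), and 2 of 7 fibrinolytic genes rose and 5 fell (median −0.28). The 6 anticoagulant genes that fell include Serpina5, the protein C inhibitor, so their count is no measure of anticoagulant activity. Over all genes tested the shares were 43.9% and 42.7%, and the roles were not tested against them. The 3 fibrinogen chains rose. Fga stood at 249, 219 and 230 CPM in GFP and at 366, 347 and 350 CPM in OE (log2 fold change 0.61 ± 0.04, adjusted p = 3.63e-09). Fgb stood at 538, 472 and 501 CPM in GFP and at 816, 783 and 773 in OE (0.65 ± 0.04, adjusted p = 2.43e-09), and Fgg at 186, 173 and 174 CPM in GFP and at 327, 307 and 305 in OE (0.82 ± 0.04, adjusted p = 2.82e-11). None of the 3 overlapped between the groups. Of the 20 other acute phase genes 6 rose and 14 fell in OE, against 43.9% and 42.7% of all genes tested. Their sum went from 15032 to 15878 CPM in GFP to 6884 to 7322 CPM in OE.

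The 250 bases before and 50 bases from the RefSeq start of a gene were searched for the letters TTGCNNAA on both strands, which read TTNNGCAA on the other strand. This is a looser form of the palindrome TTGCGCAA, which CEBP factors are known to bind, and a palindrome counts as a match of both. Of the 31 members 24 had such a window in the RefSeq promoter table (GRCm38.p6), and 11 of the 24 held a match (45.8%), against 10.8% of all 32851 windows. The first share counts genes, which had 25 windows, and the second counts windows. The second also covers all genes of that table and not only those expressed in hepatocytes. Plau, Proc, Plat, Serpina10, Kng1, Plg and Thbd had no entry. A match describes the letters only, and no binding was measured. Positions are counted from the RefSeq start, which for Fga lies downstream of the gene start given above. Matches lay in Fga at bases −135 to −128, in Fgb at −80 to −73 and in none of the window of Fgg, so the chains that rose together did not share one. Their windows are shown with the match in capitals, because these genes are neighbours that rose together in OE.

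Fga chr3:83025903-83026202 (plus strand): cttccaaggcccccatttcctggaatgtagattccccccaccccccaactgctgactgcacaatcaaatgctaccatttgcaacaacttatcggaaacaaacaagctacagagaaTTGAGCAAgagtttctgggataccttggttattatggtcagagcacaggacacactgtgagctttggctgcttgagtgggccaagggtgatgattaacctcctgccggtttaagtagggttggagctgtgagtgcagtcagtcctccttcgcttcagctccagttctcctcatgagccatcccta
Fgb chr3:83049814-83050113 (minus strand): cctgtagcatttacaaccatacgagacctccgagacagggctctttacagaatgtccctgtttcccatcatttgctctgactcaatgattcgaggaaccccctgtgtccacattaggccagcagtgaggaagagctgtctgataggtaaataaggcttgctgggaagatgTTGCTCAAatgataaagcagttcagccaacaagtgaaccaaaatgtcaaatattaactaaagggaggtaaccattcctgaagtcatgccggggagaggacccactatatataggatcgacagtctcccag
Fgg chr3:83007474-83007773 (plus strand): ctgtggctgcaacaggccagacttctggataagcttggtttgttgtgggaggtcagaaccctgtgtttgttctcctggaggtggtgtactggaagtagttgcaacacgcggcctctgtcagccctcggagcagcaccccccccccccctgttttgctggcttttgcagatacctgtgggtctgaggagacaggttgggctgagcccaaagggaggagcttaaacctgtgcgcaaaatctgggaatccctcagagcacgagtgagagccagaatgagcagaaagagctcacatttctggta

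The other matches were in F9, F11, Klkb1, Kng2, Serpinc1, Serpina5, Plaur, Cpb2 and Hrg, genes of each role. In OE 5 of these 9, F9, F11, Klkb1, Serpinc1 and Serpina5, were called lower in each setting run, Cpb2 rose, and Kng2, Plaur and Hrg had small values whose direction depended on the scale. Of all 31 members 64.5% were called lower in edgeR, against 42.7% of all genes, and a link between match and direction was not tested. Serpina5 was the member with the palindrome TTGCGCAA, at −242 to −235, a match found in 0.183% of all windows. It is shown beside F11 and Cpb2, which had lower levels in KO, with matches at −17 to −10 and at 9 to 16. These genes did not overlap between KO and WT but did not pass in edgeR. F3, the other member lower in KO without overlap, held no match and is not shown. The windows were picked with these values known.

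Serpina5 chr12:104100863-104101162 (plus strand): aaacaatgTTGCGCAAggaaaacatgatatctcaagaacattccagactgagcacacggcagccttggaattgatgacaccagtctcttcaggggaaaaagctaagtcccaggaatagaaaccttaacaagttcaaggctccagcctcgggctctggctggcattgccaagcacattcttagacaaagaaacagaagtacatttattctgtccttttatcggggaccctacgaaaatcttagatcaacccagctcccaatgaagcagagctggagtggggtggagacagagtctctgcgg
F11 chr8:45261982-45262281 (minus strand): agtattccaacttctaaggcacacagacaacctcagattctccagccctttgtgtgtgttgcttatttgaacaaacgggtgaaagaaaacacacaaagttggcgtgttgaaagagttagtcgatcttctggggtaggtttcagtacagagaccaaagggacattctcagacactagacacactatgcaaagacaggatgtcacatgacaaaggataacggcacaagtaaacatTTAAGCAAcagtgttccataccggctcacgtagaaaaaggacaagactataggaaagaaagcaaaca
Cpb2 chr14:75242037-75242336 (plus strand): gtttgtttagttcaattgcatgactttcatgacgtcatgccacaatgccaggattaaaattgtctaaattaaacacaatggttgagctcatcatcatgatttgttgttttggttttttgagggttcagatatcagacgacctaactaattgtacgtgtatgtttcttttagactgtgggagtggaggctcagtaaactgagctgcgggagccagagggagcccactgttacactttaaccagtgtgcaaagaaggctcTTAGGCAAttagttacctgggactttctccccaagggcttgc

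The 6 vitamin K-dependent genes, whose products carry carboxylated glutamates that bind calcium and membranes, all fell in OE, against 42.7% of all genes tested. Their median log2 fold change was −1.11, beside −1.53 for the 10 hepatocyte markers. F7, the protease that binds tissue factor, stood at 16.9, 16.7 and 15.3 CPM in GFP and at 5.12, 6.07 and 5.64 CPM in OE (−1.54 ± 0.09, adjusted p = 6.61e-10). F10 lies next to it on chromosome 8, with 1498 bases between them, and fell less, by 0.62 ± 0.04 on the log2 scale (adjusted p = 4.07e-10). F9 stood at 71.6, 67.7 and 64.2 CPM in GFP and at 29.4, 28.8 and 23.5 in OE (−1.31 ± 0.07, adjusted p = 2.13e-10). F2, prothrombin, fell with a log2 fold change of −0.91 ± 0.03. Proc, protein C, which inactivates factors V and VIII, stood at 126, 119 and 118 CPM in GFP and at 42.3, 43.5 and 41.9 in OE (−1.51 ± 0.04, adjusted p = 4.02e-14), and Pros1, its cofactor protein S, fell with −0.74 ± 0.05. The procoagulant and the anticoagulant members of this family thus fell alike in direction, and none of those shown overlapped between the groups.

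Of the 5 genes of the contact system 4 fell, against 42.7% of all genes tested. Klkb1, plasma prekallikrein, stood at 14.2, 13.3 and 13.9 CPM in GFP and at 1.53, 1.35 and 1.03 CPM in OE, a 10.5-fold lower level (log2 fold change −3.39 ± 0.13, adjusted p = 5.1e-12). F11, its neighbour on chromosome 8 with 4657 bases between them and a gene of similar sequence, so that reads may be divided between both, stood at 68.4, 75.7 and 73.2 CPM in GFP and at 19.1, 20.4 and 16.96 in OE (−1.94 ± 0.06, adjusted p = 6.33e-13). F12, the protease that starts this pathway on surfaces, stood at 246, 244 and 245 CPM in GFP and at 89.5, 92.5 and 89.0 in OE (−1.44 ± 0.03, adjusted p = 3.3e-15). The kininogens Kng1 and Kng2, which share sequence too, had a log2 fold change of −0.34 ± 0.03 and an interval of −0.11 to 0.10, respectively, and the call of Kng1 was lost in limma on log2(TPM + 1). Kng2 did not pass in edgeR but was called higher in OE in limma on log2(TPM + 1) (0.29, adjusted p = 0.00104), with library totals (0.14, adjusted p = 0.00929) and with the trend with gene length removed (0.11, adjusted p = 0.0305). Of the cofactors, F5 rose with a log2 fold change of 0.72 ± 0.04 (adjusted p = 2.55e-10). F13b, the carrier subunit of factor XIII, stood at 17.3, 13.3 and 14.5 CPM in GFP and at 3.14, 3.28 and 3.29 in OE (−2.21 ± 0.12, adjusted p = 2.49e-10).

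All 5 serpins, inhibitors that trap serine proteases, fell in OE, against 42.7% of all genes tested. Their median log2 fold change was −2.18, beside −1.53 for the 10 hepatocyte markers. Serpina5 stood at 11.03, 12.9 and 13.5 CPM in GFP and at 0.33, 0.135 and 0.141 CPM in OE, which were 8, 3 and 3 counts (−5.88 ± 0.22, adjusted p = 3.22e-12). Serpina10 stood at 113, 97.9 and 105 CPM in GFP and at 20.8, 17.5 and 17.6 in OE (−2.50 ± 0.07, adjusted p = 9.53e-14). Serpind1, heparin cofactor II, stood at 17.8, 17.01 and 18.02 CPM in GFP and at 4.29, 3.46 and 3.85 in OE (−2.18 ± 0.10, adjusted p = 1.91e-11). None of these overlapped between the groups. Serpinf2, which encodes the plasmin inhibitor α-antiplasmin, stood at 116 CPM in each GFP library and at 25.5, 25.5 and 29.98 in OE (−2.11 ± 0.05, adjusted p = 2.97e-14). Serpinc1 fell least, with −0.79 ± 0.04.

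The members of the vessel wall and of cell surfaces moved in both directions, with 4 rises and 2 falls, against 43.9% and 42.7% of all genes tested. Tfpi rose 34.8-fold, from 1.839, 1.598 and 1.59 CPM in GFP to 55.1, 56.3 and 64.4 CPM in OE (log2 fold change 5.12 ± 0.10, adjusted p = 3.58e-15). It was the largest rise among the members, and all 3 OE libraries lay far above all 3 GFP libraries. F3 stood at 39.8, 34.5 and 34.6 CPM in GFP and at 43.1, 49.6 and 47.9 in OE (0.37 ± 0.07, adjusted p = 0.000113), a call lost in the fit of all 12 libraries (adjusted p = 0.0879). Thbd stood at 22.01, 21.1 and 20.4 CPM in GFP and at 29.1, 30.1 and 28.3 in OE (0.46 ± 0.06, adjusted p = 3.32e-06), lost in the same fit. F8 stood at 2.43, 2.35 and 2.36 CPM in GFP and at 2.10, 1.89 and 2.21 in OE (−0.20 ± 0.18, adjusted p = 0.296), and it passed as lower once a trend with gene length was removed (−0.61 ± 0.18). The groups of these 3 genes did not overlap.

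Plat, tissue-type plasminogen activator, was at 0 counts in all WT and KO libraries, where 3 counts correspond to 0.123 to 0.154 CPM. It stood at 14.6, 15.1 and 15.8 CPM in GFP and at 1.32, 1.39 and 1.83 in OE, 10-fold lower (−3.33 ± 0.13, adjusted p = 3.56e-12). Plau, urokinase, was low, with 1.19, 2.40 and 1.75 CPM in GFP and 2.52, 3.23 and 3.24 in OE (0.74 ± 0.23, adjusted p = 0.009), a call lost in the fit of all 12 libraries. Its receptor Plaur, which had at most 0.103 CPM in WT and KO, stood at 41.9, 39.9 and 39.4 CPM in GFP and at 37.9, 37.7 and 34.8 in OE. The groups did not overlap, and the log2 fold change was −0.13 ± 0.05 (adjusted p = 0.0251 in edgeR). In limma on log2(TPM + 1) Plaur was called higher in OE instead (0.16, adjusted p = 0.0214). The call as lower was lost in 7 further settings, among them those without GFP1, OE2 or OE3. Of the 12 endothelial markers tested, from a list of 13, 8 fell and 0 rose in OE, against 42.7% and 43.9% of all genes. Of the macrophage list Cd68 fell and Csf1r rose. The part of these cells in the values of Thbd, Plat and Plaur was not tested.

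**Figure D4:**
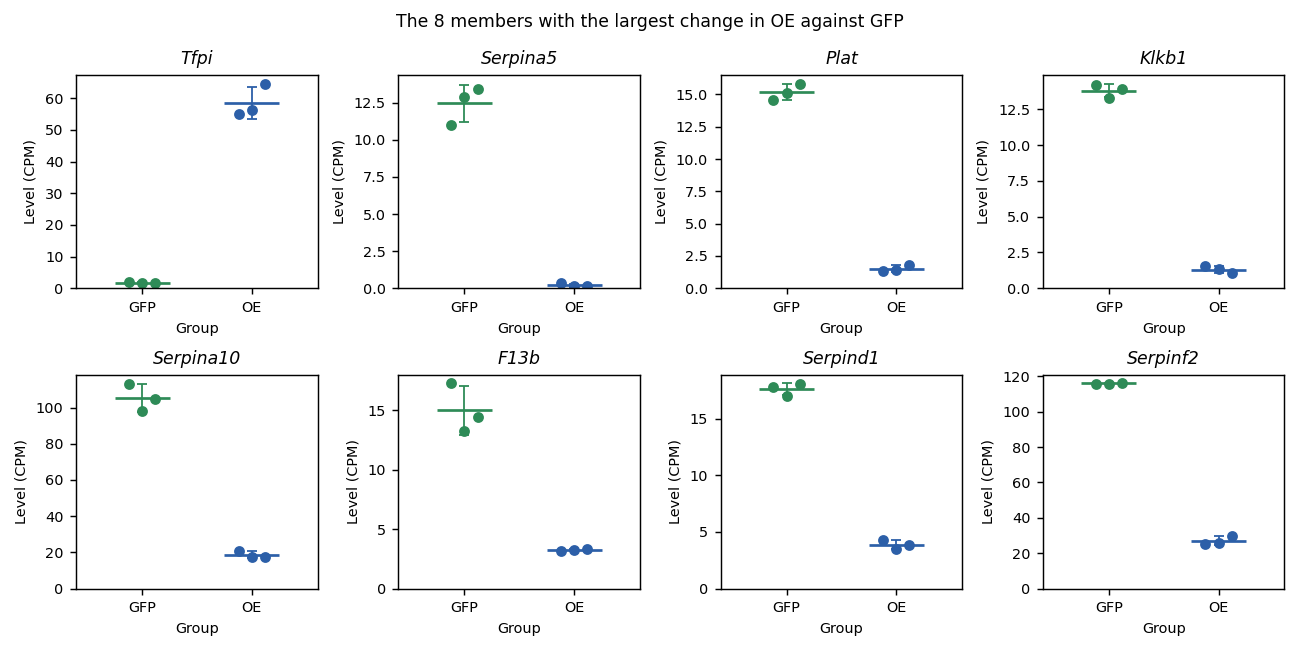
Level in CPM (vertical, from 0) of the 8 members with the largest log2 fold change in OE against GFP, by group (horizontal), with a point for each library, a line at the mean and whiskers of 1 SD (n = 3). Tfpi rose from a mean of 1.68 to 58.6 CPM and the other 7 fell, Serpina5 from 12.5 to 0.202 CPM.

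Among the other fibrinolytic genes, Plg, the source of plasmin, fell with a log2 fold change of −0.84 ± 0.03 (adjusted p = 8.74e-12), while Serpinf2, which inhibits plasmin, fell more. In TPM the ratio of Plg to Serpinf2 was 0.643 to 0.653 in GFP, compared with 1.42 to 1.841 in OE, and it was 2.53 to 2.88 in WT and 2.14 to 2.72 in KO. Cpb2 rose with 0.41 ± 0.04 (adjusted p = 1.35e-07) and was the only fibrinolytic gene other than Plau to rise. Hrg, histidine-rich glycoprotein, which binds plasminogen, had a log2 fold change of −0.28 ± 0.07 (adjusted p = 0.00268), which was 0.02 on the TPM scale.

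Summed in TPM, fibrinogen went from 525 to 579 TPM in GFP to 1092 to 1145 in OE, and the other procoagulant genes from 1203 to 1226 to 919 to 954. The anticoagulant genes went from 554 to 559 TPM to 364 to 365, and the fibrinolytic genes stood at 406 to 414 in GFP, compared with 401 to 428 in OE. The log2 ratios of the group means were 1.02, −0.37, −0.61 and 0.03, to be read against the shift of 0.27 of the median gene on this scale. The fibrinolytic sum mixes Plg with Cpb2 and Serpinf2, which act against lysis, so it is no measure of fibrinolysis. In GFP and OE Plg averaged 65.5 and 45.7 TPM, Cpb2 156 and 259, and Serpinf2 101 and 27.9. Fibrinogen made up 19.3% to 20.9% of the members' TPM in GFP, compared with 38.5% to 39.7% in OE, 38.0% to 43.1% in WT and 41.9% to 58.0% in KO. The ratio of procoagulant to anticoagulant TPM was 3.13 to 3.23 in GFP, compared with 5.54 to 5.73 in OE, and without fibrinogen it was 2.15 to 2.21 and 2.52 to 2.62. In WT and KO the ratio was 2.91 to 3.42 and 2.87 to 4.83, with KO2 highest, and without fibrinogen it was 1.11 to 1.14 in WT and 0.938 to 1.04 in KO. These sums are descriptions, and no test was made on them.

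**Figure D5:**
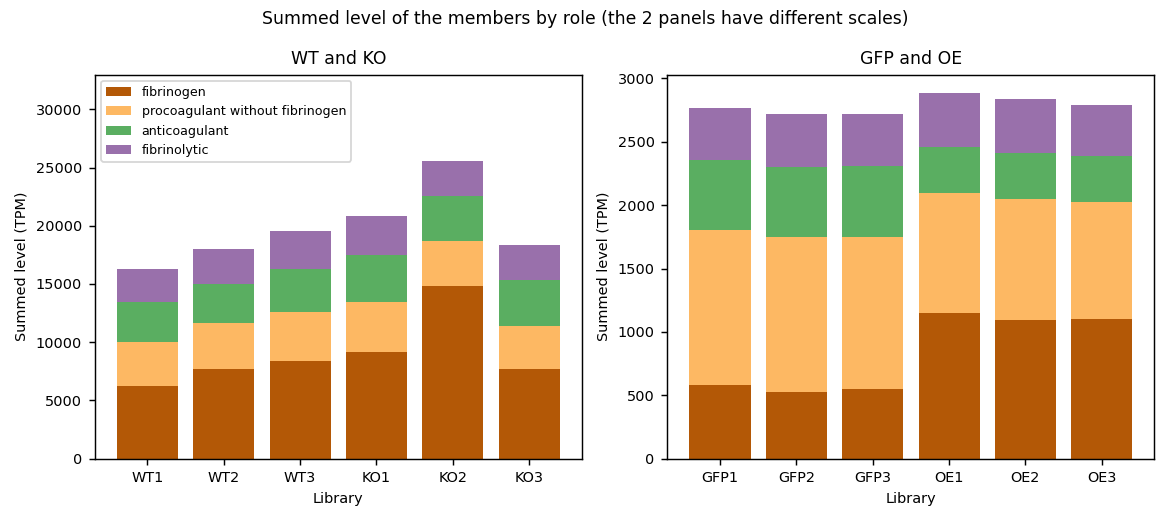
Summed TPM of the members by role (vertical, stacked bars from 0, with a different scale in each panel) in each WT and KO library (left) and each GFP and OE library (right). The fibrinogen share is 38.5% to 39.7% in OE against at most 20.9% in GFP, and KO2 has the highest sum of the 12 libraries, 25573 TPM.

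The difference of both effects, the log2 fold change in OE minus that in KO, was tested in 1 fit of all 12 libraries, and the comparisons share no library. The fit gives both experiments the same spread, which may be too small for KO and WT. A value near 0 means that a gene moved alike with more and with less CEBPA. Of the 31 members 4 passed as higher and 17 as lower, against 25.9% and 28.1% of all 15326 genes, 54.1% in all. The 4 were F5 (1.08 ± 0.18, adjusted p = 0.000404), F3 (1.91 ± 0.44, adjusted p = 0.00286), Tfpi (4.10 ± 0.57, adjusted p = 7.51e-05, and 3.39 without WT3) and Cpb2 (0.97 ± 0.13, adjusted p = 5.23e-05). F5, F3 and Cpb2 had a negative log2 value in KO and a positive one in OE. F11 had a negative value in both, and passed as lower (−1.36 ± 0.15, adjusted p = 1.41e-05). Serpina10 had a positive value in KO and fell in OE, with a difference of −3.33 ± 0.38 (adjusted p = 1.64e-05).

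The fibrinogen chains had positive values in both comparisons, and their differences were 0.01 ± 0.32, 0.22 ± 0.27 and 0.34 ± 0.28, with intervals of −0.69 to 0.71, −0.36 to 0.81 and −0.27 to 0.95. None passed, and without KO2 those of Fgb and Fgg did, with 0.52 and 0.66 (adjusted p = 0.0239 and 0.00514). For Plat, Plau and Plaur no difference can be read, since they were at or near 0 counts in WT and KO. Among the serpins the differences ran from −4.21 ± 0.92 for Serpina5 to −0.98 ± 0.10 for Serpinc1, all 5 past the test. That of Serpina5 was −2.87 without KO1 and −4.81 without OE1, and it passed without each library in turn.

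A list of 30 other genes of haemostasis, such as receptors, processing enzymes and further inhibitors, was set beside the members. In KO against WT 19 were tested, 0 rose and 1 fell, with a median log2 fold change of 0.14. The 1 was S100a10, a partner of annexin A2 that binds plasminogen at the cell surface, with 37.0, 39.9 and 26.6 CPM in WT, compared with 4.14, 4.68 and 11.3 in KO (−2.35 ± 0.39, adjusted p = 0.0377). The groups did not overlap, and the call was lost with the stricter filter, with the replicate block (−2.47, adjusted p = 0.123) and without WT1, WT2, WT3, KO1 or KO2, with adjusted p values of up to 0.149, and without KO3 the value was −2.97. Next by p were Serpine2, Hgfac and Gas6, with values of 0.62 ± 0.15, 0.43 ± 0.10 and 1.61 ± 0.54, which did not pass in edgeR (adjusted p = 0.115, 0.116 and 0.248). All 3 were called higher in KO by DESeq2 (adjusted p = 0.0106, 0.00725 and 0.0245) and in the fit of all 12 libraries (adjusted p = 0.00879, 0.00425 and 0.0423). Without KO2 Serpine2 passed in edgeR, with 0.77 (adjusted p = 0.0399), and the value of Gas6 was 0.67 (adjusted p = 0.151).

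In OE against GFP 25 of the list were tested, and 10 rose and 14 fell with a median of −0.44, against 43.9% and 42.7% of all genes tested. Serpinb2, plasminogen activator inhibitor 2, had 2 counts over all 3 GFP libraries and 9515 over the OE libraries, which stood at 152, 134 and 134 CPM. The ratio was 4273, with a 95% counting interval of 1183 to 35292. F2r, a thrombin receptor, fell with a log2 fold change of −1.33 ± 0.03 (adjusted p = 5.8e-15), Habp2, a protease that activates factor VII, with −1.61 ± 0.05 (adjusted p = 4.82e-13), and Serpine2, an inhibitor of thrombin and of plasminogen activators, with −1.52 ± 0.05 (adjusted p = 8.03e-13).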

How the data were processed

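Stranded mRNA libraries were prepared from column-purified RNA of the 12 hepatocyte samples. Per the labels, the tools were Trimmomatic 0.36, STAR 2.5.1, Picard 1.84, RSEM 1.2.22 and DESeq2, with mouse build mm10. The authors deposited expected counts from RSEM, estimates of the reads per gene with no scaling for depth, and TPM, which the authors scaled for gene length within each library. FPKM was not used.

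Expected counts were rounded, filtered with filterByExpr (minimum count 10, minimum total 15) and scaled by TMM within each experiment. The quasi-likelihood F test of edgeR 4.0.16 was fitted to all genes, 2-sided, and p values were adjusted by Benjamini-Hochberg over every gene in the fit, and called at an adjusted p under 0.05. KO and WT, and OE and GFP, were fitted on 6 libraries each, and the difference of both effects on all 12. The biological coefficient of variation in that last fit was 13.9%. Other settings were DESeq2 1.42.0, limma 3.58.1 on log2(TPM + 1) or log2(TPM + 0.1) at a mean of at least 1 TPM, DESeq2-type size factors, library totals, all genes above 0 counts, a stricter limit (at least 1 CPM in 3 libraries with a mean of 5 CPM or more), removal of a trend with gene length (lowess, span 0.3), all 12 libraries in each fit, the replicate number as a block, and each library left out once. Scripts were tested on simulated data.

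Each library's value was given for members called in KO, members called over 2-fold in OE, the fibrinogen chains and the 7 cell surface and vessel wall genes, and in each comparison the 4 other haemostasis genes with the lowest p were named. The values of Serpinc1 and Cpb2 in WT and KO fall outside this rule and were picked with the results known. The members and lists were chosen with earlier results of these data known. Gene identifiers were matched to GENCODE M21 and promoter windows to RefSeq, where Tfpi has more than 1 window. Intervals and floors of counts (3 counts) cover counting error only, since reads are not independent molecules. No library was left out.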

Additional observations from a re-analysis of the deposited data

How the results depend on the processing

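The count of members called in KO against WT was 0 in edgeR and in each of the settings run but DESeq2, which called 2, and the fit of all 12 libraries, which called 3. Without 1 library in turn it was 0, while members called in OE against GFP numbered 28 to 29 and those called in the difference 21 to 23. Counts in OE were 25 to 30 over the other settings. Same-numbered libraries did not deviate together (correlations of −0.42 to 0.03 for KO and WT and −0.07 to 0.04 for GFP and OE), so the numbers were not taken as pairs. With the replicate block the member counts were 0, 29 and 21, and 0.734% of all genes were called in KO against WT. The log2 values below changed sign, and the cause was not tested. Depth limits the genes at few counts, Thbd and Tfpi in WT and KO among them.

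In KO against WT, with library totals F7 had −0.0453, Klkb1 had −0.0369, Proc had −0.0203, Thbd had −0.00242 and Hrg had −0.0146. In limma on log2(TPM + 1) F7 had −0.0336, Klkb1 had −0.0410, Proc had −0.0133 and Hrg had −0.0116. In limma on log2(TPM + 0.1) F7 had −0.0339, Klkb1 had −0.0416, Proc had −0.0133 and Hrg had −0.0116. In the fit of all 12 libraries F7 had −0.00514 and Klkb1 had −0.00903. With no filter F7 had −0.00313 and Klkb1 had −0.00700. With the length trend removed Klkb1 had −0.0189. With the replicate block Klkb1 had −0.000448. Over the fits without 1 library the range was −0.00785 to 0.124 for F2, −0.0762 to 0.0614 for F7, −0.113 to 0.0788 for Klkb1, −0.0289 to 0.206 for Kng2, −0.00768 to 0.0598 for Proc, −0.534 to 0.813 for Thbd and −0.0887 to 0.134 for Hrg.

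In OE against GFP, in DESeq2 Kng2 had 0.0296. With DESeq2-type size factors Kng2 had 0.0251. With library totals Kng2 had 0.137 and Plaur had 0.00627. In limma on log2(TPM + 1) Kng2 had 0.289, Plaur had 0.160 and Hrg had 0.0224. In limma on log2(TPM + 0.1) Kng2 had 0.291, Plaur had 0.163 and Hrg had 0.0230. In the fit of all 12 libraries Kng2 had 0.00608. With the length trend removed Kng2 had 0.113 and Plaur had 0.0852. With no filter Kng2 had 0.00605. With the stricter filter Kng2 had 0.0402. Over the fits without 1 library the range was −0.0428 to 0.0722 for Kng2.

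In the difference of both effects, in DESeq2 Fga had −0.00661. With DESeq2-type size factors Fga had −0.0147. With the stricter filter Kng2 had 0.0115. Over the fits without 1 library the range was −0.208 to 0.363 for Fga, −0.180 to 0.0447 for Kng2, −0.288 to 1.08 for Thbd and −3.27 to 0.749 for Plau.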
